A study of Mus musculus with 2 samples.

Results

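The integrin and laminin genes were described across the cell types of mouse liver with tumour at minimal residual disease. The members are the genes whose symbol begins with Itga, Itgb, Lama, Lamb or Lamc followed by a subunit number or letter, with at least 20 unique molecular identifiers (UMIs) in total; Itgbl1 and the integrin-binding protein genes were left out. This gave 38 of 32285 genes: 18 integrin alpha genes, 9 integrin beta genes and 11 laminin genes. All 38 matched the GENCODE annotation by gene identifier, and their UMIs in the filtered matrix ran from 23 (Itgad) to 15059 (Itga1).

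Integrins are cell surface receptors made of 1 alpha and 1 beta chain that tie the cytoskeleton to the extracellular matrix or to other cells. Laminins are trimers of an alpha, a beta and a gamma chain and are a main polymer of basement membranes. These membranes underlie ducts and vessels but are sparse around hepatocytes. Integrins with the chains encoded by Itga3, Itga6 and Itgb4 bind laminins, those with Itga1, Itga2, Itga10 and Itga11 bind collagens, those with Itgav bind vitronectin, fibronectin or latent TGF-beta, and those with Itgb2 or Itgb7 are found on leukocytes.

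The nuclei came from frozen liver, from a dissected region of residual hepatocellular carcinoma (HCC), and were profiled with 10x Genomics 3' droplet libraries. The labels list 2 samples of 1 group, MRD-HCC 1 and MRD-HCC 2, and give no genotype, strain, age or treatment. The counts form 1 matrix whose barcodes name no sample, so it was read as 1 sample: there is no replicate, no test was run, and each interval (95%, exact Poisson) covers counting error only. No tumour-free liver was analysed here, and the labels do not say how many animals the nuclei came from.

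After filters 16411 nuclei remained, with a median of 2806 UMIs. Nuclei were placed by markers into 7 gates: 1907 Pkhd1-high tumour, 487 hepatocyte-like tumour, 1042 ductal, 1339 stromal, 778 endothelial, 451 immune and 1621 hepatocyte nuclei. The other nuclei met no gate (8216 nuclei) or more than 1 (570 nuclei) and entered no comparison. Median UMIs per gate ran from 2753 (immune) to 16316 (hepatocyte). Haemoglobin transcripts, which come from red blood cells, stood at 8.36% of their level in free RNA (the profile of uncalled barcodes) in hepatocyte nuclei and at up to 34.8% in immune nuclei.

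The gate names were set against the markers that had placed the nuclei, so the counts that follow are partly fixed by the gating. The markers were highest in their own gate for 9 of 10 in Pkhd1-high tumour, 8 of 11 in ductal, 25 of 25 in stromal, 18 of 18 in endothelial, 24 of 25 in immune and 9 of 9 in hepatocyte nuclei. In hepatocyte-like tumour nuclei this held for only 3 of 8, and the genes that set the gate apart were led by A2m and H19, none of them gate markers. That gate also held other lineages' genes above the hepatocyte gate: Ptprc, the pan-leukocyte phosphatase, was at 52.6 CPM (UMIs per 1e6 UMIs of the gate) against 14.3 CPM, Stab2, of sinusoidal endothelium, at 83.6 CPM against 40.2 CPM, and Reln, of stellate cells, at 54.1 CPM against 24.6 CPM. The ductal gate held Ccnd3, a gene of the tumour nuclei here, at 5957 CPM, close to its 5638 CPM in Pkhd1-high tumour nuclei, so whether all ductal nuclei are non-malignant cannot be told from these markers.

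A pair of promoters is shown because both genes stood higher in tumour than in hepatocyte nuclei and the bases shown lie wholly outside the annotated gene. RefSeq held a promoter window for 24 of the 38 members. Each run is the 250 bases before the start, 5′ to 3′ on the gene's strand, from RefSeq on GRCm38.p6: Lama5, which encodes the laminin alpha chain of mature epithelial and vascular basement membrane, at chr2:180225860-180226109 on the minus strand, and Itgav at chr2:83724147-83724396 on the plus strand. Capitals mark GC boxes.
Lama5: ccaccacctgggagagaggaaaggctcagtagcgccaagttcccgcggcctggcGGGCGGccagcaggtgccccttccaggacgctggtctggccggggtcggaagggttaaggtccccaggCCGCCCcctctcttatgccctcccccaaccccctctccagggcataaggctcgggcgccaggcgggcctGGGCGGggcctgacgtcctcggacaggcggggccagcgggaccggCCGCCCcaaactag
Itgav: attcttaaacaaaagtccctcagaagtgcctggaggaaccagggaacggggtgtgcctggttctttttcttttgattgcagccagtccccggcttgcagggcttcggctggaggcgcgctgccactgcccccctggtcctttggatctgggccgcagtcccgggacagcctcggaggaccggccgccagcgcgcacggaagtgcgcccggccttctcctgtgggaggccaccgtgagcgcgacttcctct

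Searched on both strands, the GC box (GGGCGG) occurred 4 times in the Lama5 window and not in the Itgav window, and 32.7% of the 32851 RefSeq windows of this length hold at least 1. The AP-1 motif (TGANTCA) and the TEAD motif (GGAATG), held by 6.75% and 12.6% of all windows, are not among these letters in either window. None of these motifs overlapped another. The GC content was 72.4% for Lama5 and 64.4% for Itgav, against a median of 52.4% over all windows.

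Most members were led by 1 cell type. With the tumour gates pooled, 25 of 37 members with at least 20 UMIs over the gates were at least 2-fold higher in 1 of the 6 gates than in the next; over all 18695 genes the share was 23.5%. Tumour nuclei led 1 member (1.87% of all genes), ductal nuclei 5 (2.73%), stromal nuclei 6 (4.68%), endothelial nuclei 6 (3.51%), immune nuclei 7 (5.78%) and hepatocyte nuclei none (4.93%). Hepatocyte nuclei had the lowest level of the 6 gates for 25 of the 37. The share of all genes lowest in hepatocyte nuclei was not counted, so this count is not read as particular to the members. Itgad, a leukocyte alpha chain, had 10 UMIs over the 6 gates and is not placed.

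**Figure D1:**
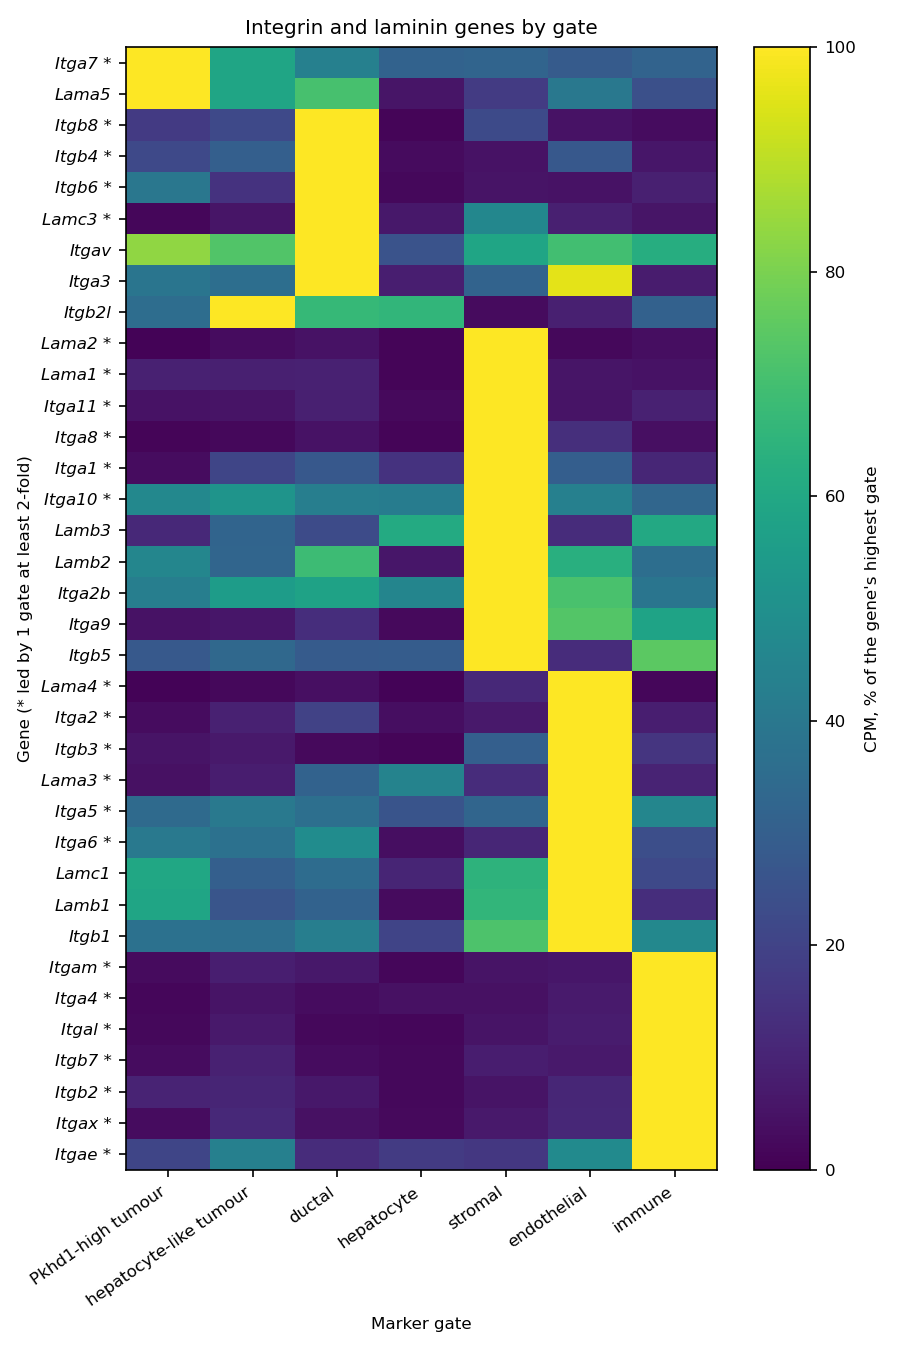
Level of integrin and laminin genes (rows, 36 genes) in each marker gate (columns), as the gene's CPM in percent of its highest gate. Asterisks mark the 24 genes led by 1 gate at least 2-fold after pooling the tumour gates; the hepatocyte column is dark for most rows.

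The tumour nuclei were set against hepatocytes first. In Pkhd1-high tumour nuclei 15 of 37 members were at least 2-fold higher than in hepatocyte nuclei (25.8% of all genes were) and 5 were at least 2-fold lower (15.9% of all genes). The median log2 ratio over the members was 0.63, against 0.27 over all 17083 genes. For the laminins 6 of 11 were higher and 3 lower, with a median log2 ratio of 2.52, and for the integrins 9 of 26 were higher and 2 lower, with a median of 0.61. The 15 higher members included Lama1, Lama5, Lamb1, Lamb2, Lamc1, Itga3, Itga6, Itga7, Itgav, Itgb2, Itgb3, Itgb4, Itgb6 and Itgb8, and all 15 stayed past 2-fold in each alternative that changed how nuclei were filtered, gated or clustered, or how UMIs were summed.

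**Figure D2:**
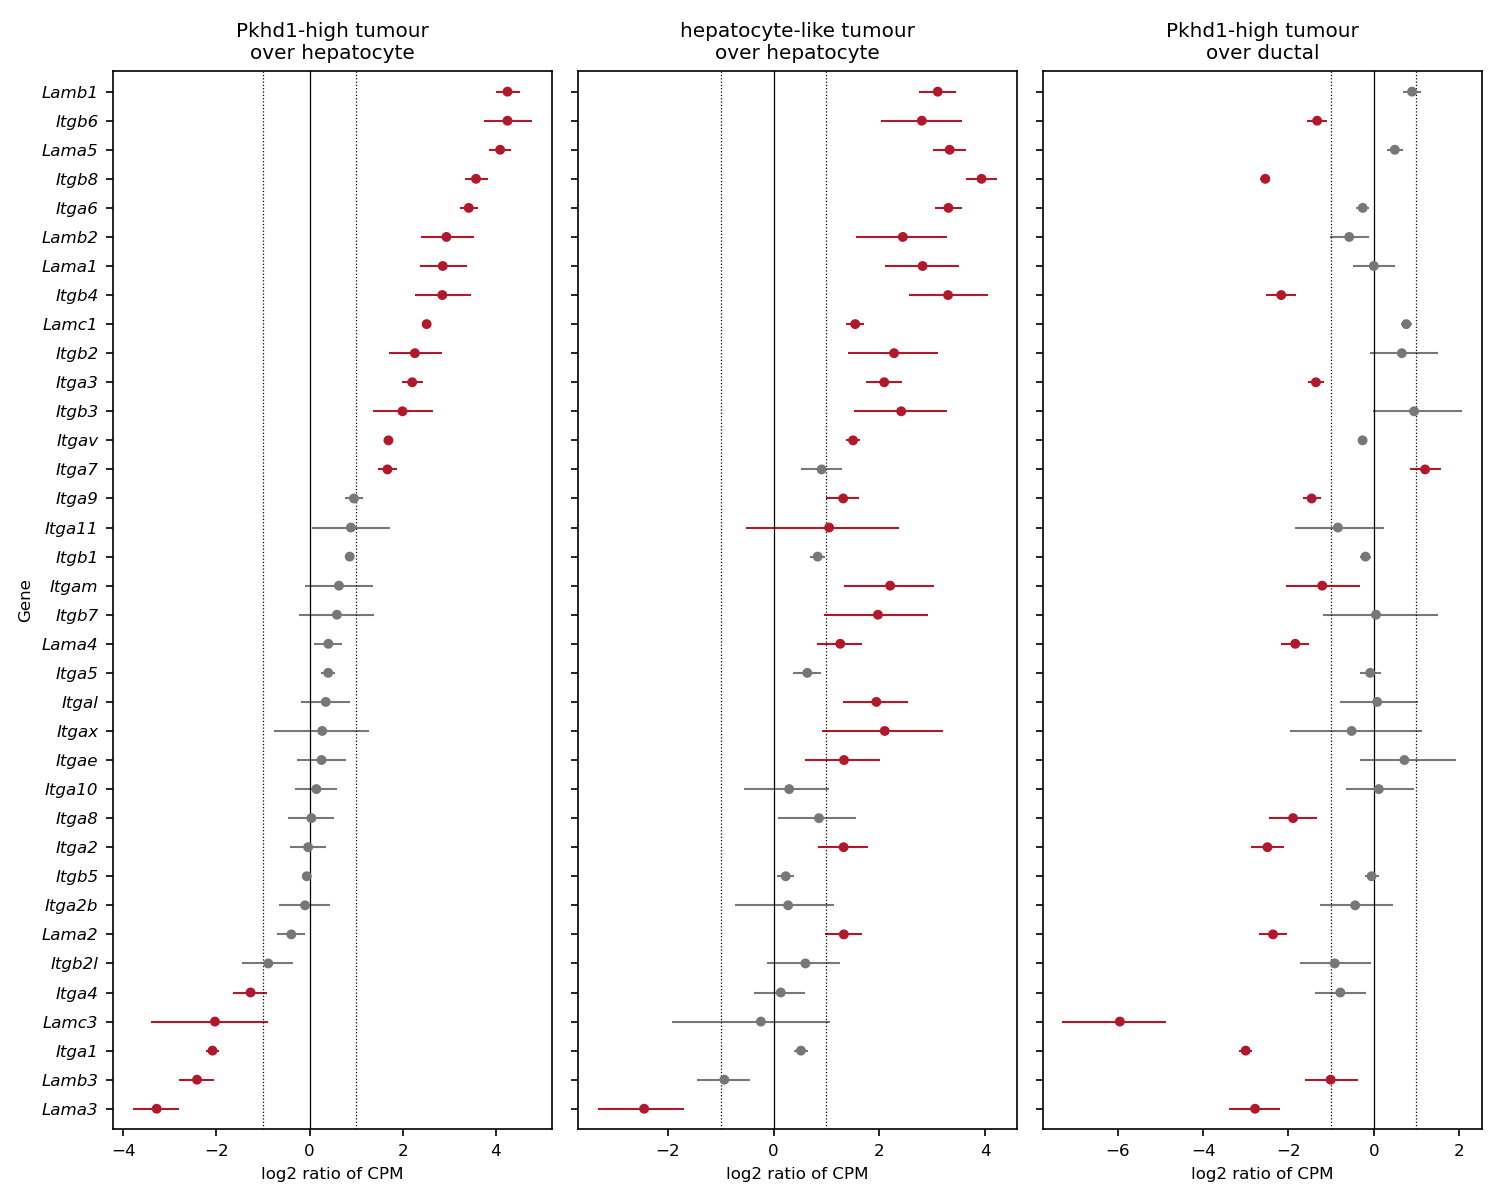
Log2 ratio of CPM with its 95% counting interval for the members, one panel per comparison (Pkhd1-high tumour over hepatocyte, hepatocyte-like tumour over hepatocyte, Pkhd1-high tumour over ductal). Red points lie at least 2-fold from equality (dotted lines); Lamb1, Itgb6 and Lama5 stand at the top of the first panel and Lama3 at the bottom.

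Lama5, Lamb1 and Lamc1 were higher in both tumour gates than in hepatocytes. Lama5 was at 95.7 CPM in Pkhd1-high tumour nuclei and 56.2 CPM in hepatocyte-like tumour nuclei, against 5.60 CPM in hepatocyte nuclei, or 17.1-fold (14.6 to 20.2) and 10.0-fold (8.11 to 12.5). Lamb1, the beta chain of most early basement membranes, was at 91.4 CPM and 41.2 CPM in these tumour nuclei, against 4.79 CPM in hepatocytes (19.1-fold, 16.0 to 22.8, for the Pkhd1-high nuclei). Lamc1, the gamma chain shared by most laminins, was at 225 CPM and 115 CPM, against 39.3 CPM. These 3 chains were above the hepatocyte level in both tumour gates, with intervals that did not meet it.

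Lama1, the alpha chain of embryonic basement membrane, was at 10.2 CPM in Pkhd1-high and 9.92 CPM in hepatocyte-like tumour nuclei, against 1.41 CPM in hepatocytes. Lamb2, the beta chain of kidney filter and neuromuscular laminins, was at 8.49 CPM and 6.01 CPM, against 1.11 CPM. Both were thus higher in both tumour gates, at levels where free RNA alone was at 5.51 CPM for Lama1 and 7.96 CPM for Lamb2. Lama1 differed between the types of Pkhd1-high nuclei described below.

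Lama3 and Lamb3, which encode an alpha and a beta chain of epithelial laminin, ran the other way. Lama3 was at 2.36 CPM in Pkhd1-high and 4.21 CPM in hepatocyte-like tumour nuclei, against 23.0 CPM in hepatocyte nuclei (9.75-fold lower, 7.03 to 13.9, in the Pkhd1-high nuclei). Lamb3 was at 3.97 CPM and 11.1 CPM, against 21.2 CPM. Lamb3 (chr1:193207699-193343878, plus strand, mm10) encloses Hsd11b1 on the other strand, which was at 27.1 CPM in Pkhd1-high tumour, 459 CPM in stromal and 38.5 CPM in hepatocyte nuclei. It also encloses G0s2 on the other strand, at 4.71 CPM in Pkhd1-high tumour, 14.4 CPM in hepatocyte-like tumour and 44.9 CPM in hepatocyte nuclei, the same order as Lamb3. Whether reads of either gene enter the Lamb3 count was not tested. Lamc3, another gamma chain, had 7 UMIs in Pkhd1-high tumour nuclei (0.434 CPM) and 53 in hepatocytes (1.78 CPM). Its call did not hold in every alternative.

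Itga6 and Itga3, alpha chains of laminin receptors, were higher in both tumour gates. Itga6 was at 91.9 CPM in Pkhd1-high and 84.8 CPM in hepatocyte-like tumour nuclei, against 8.58 CPM in hepatocytes (10.7-fold, 9.37 to 12.3, and 9.88-fold, 8.31 to 11.8). Itga3 was at 34.2 CPM and 31.6 CPM, against 7.41 CPM. Itgb4, the beta chain of hemidesmosomes and a partner of Itga6, was at 7.50 CPM and 10.2 CPM, against 1.04 CPM. Itgb4 was thus higher in both tumour gates as well.

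The beta chains that pair with Itgav and bind latent TGF-beta also lay above hepatocytes. Itgb8 was at 61.6 CPM in Pkhd1-high and 78.8 CPM in hepatocyte-like tumour nuclei, against 5.16 CPM in hepatocytes (11.9-fold, 10.1 to 14.2, and 15.3-fold, 12.5 to 18.7). Itgb6, an epithelial beta chain, was at 23.0 CPM and 8.42 CPM, against 1.21 CPM (19.1-fold, 13.5 to 27.6, for Pkhd1-high nuclei). Itgav itself was at 231 CPM and 202 CPM, against 71.4 CPM. Itgb5, another partner of Itgav, did not follow them: it was at 86.1 CPM and 105 CPM, against 89.8 CPM, a ratio of 0.959 (0.899 to 1.02) for the Pkhd1-high nuclei. Itgb1, the partner of most alpha chains, was at 151 CPM and 148 CPM, against 83 CPM (1.82-fold, 1.72 to 1.92, short of the 2-fold call). Itgb3 was at 4.28 CPM in Pkhd1-high tumour nuclei, against 1.07 CPM in hepatocytes, with free RNA at 8.16 CPM. Itgb2, the common beta chain of leukocytes, was at 5.95 CPM against 1.24 CPM, with free RNA at 11.4 CPM.

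Itga7, best known as a laminin receptor of muscle, was the one member led by tumour nuclei: 35.3 CPM in Pkhd1-high and 20.8 CPM in hepatocyte-like tumour nuclei, against 15.3 CPM in ductal and 11.1 CPM in hepatocyte nuclei. With the tumour gates pooled it was 2.14-fold (1.67 to 2.78) above ductal nuclei, the next gate. The gene (chr10:128933818-128958282, plus strand) overlaps the last bases of Mettl7b on the other strand, which was at 16.1 CPM in Pkhd1-high tumour and 128 CPM in hepatocyte nuclei, the reverse order. Taken as a mean of the CPM of single nuclei, the lead was under 2-fold. Itga7 also differed between the types of Pkhd1-high nuclei described below.

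Itga1, the collagen receptor chain of stromal cells and sinusoids, was lower in Pkhd1-high tumour nuclei: 29.0 CPM, against 123 CPM in hepatocytes (4.25-fold lower, 3.86 to 4.69). In hepatocyte-like tumour nuclei it was at 176 CPM. Itga4, a leukocyte chain, was at 4.77 CPM in Pkhd1-high tumour nuclei and 11.5 CPM in hepatocytes, but that call did not hold in every alternative, and its free RNA level was 13.4 CPM.

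In hepatocyte-like tumour nuclei 24 of 37 members were at least 2-fold higher than in hepatocytes (23.9% of all genes) and 1, Lama3, at least 2-fold lower (7.95% of all genes), with a median log2 ratio of 1.33 against 0.28 over all genes. Beside the chains described above, the 24 include genes of leukocytes (Itgae, Itgal, Itgam, Itgax, Itgb2, Itgb7), of stroma (Itga11, Lama2) and of vessels (Lama4, Itgb3). Itgal was at 9.92 CPM against 2.58 CPM, and Itgb7 at 4.21 CPM against 1.07 CPM, on 33 and 14 UMIs in the tumour nuclei. These counts go with the Ptprc, Stab2 and Reln levels of the gate given above, and their part in the result was not tested. With clusters in place of gates Itgb7 was below the hepatocyte level in 8 of 10 random starts, Itgae was past 2-fold in none, and the number of higher members ran from 13 to 23. In each of those alternatives 14 of the 24 stayed past 2-fold, among them the laminins Lama1, Lama5, Lamb1, Lamb2 and Lamc1 and the integrins Itga3, Itga6, Itgal, Itgam, Itgav, Itgb4, Itgb6 and Itgb8. Over the random starts Itgal was past 2-fold in 7 of 10 and Itgam in 9 of 10, and each was below the hepatocyte level in 1.

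The 2 tumour gates were then set against each other. At least 2-fold higher in Pkhd1-high than in hepatocyte-like tumour nuclei were 3 of 36 members (8.69% of all genes), among them Lamb1 (91.4 and 41.2 CPM) and Itgb6 (23.0 and 8.42 CPM). At least 2-fold lower were 11 (14% of all genes). Itga1 was the one with the most UMIs, at 29.0 CPM in Pkhd1-high and 176 CPM in hepatocyte-like tumour nuclei (6.08-fold lower, 5.37 to 6.88). Stromal nuclei had Itga1 at 841 CPM and free RNA at 102 CPM. The part of other lineages' RNA in the hepatocyte-like gate was not tested. The other 10 were Itga2, Itga4, Itgae, Itgal, Itgam, Itgax, Itgb2l, Itgb7, Lama2 and Lamb3. Of the 11 lower members, only Itga1 and Itga2 stayed past 2-fold in each of those alternatives. Of the 3 higher members, Lamb1 and Itgb6 did not. With clusters Itgb7 was higher in Pkhd1-high than in hepatocyte-like tumour nuclei in 10 of 10 random starts. The ratio of Pkhd1-high to hepatocyte-like tumour nuclei was 1.08 (0.953 to 1.24) for Itga6, 1.08 (0.877 to 1.35) for Itga3 and 1.02 (0.926 to 1.13) for Itgb1.

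The tumour nuclei were next set against ductal nuclei, which share Pkhd1 with them. Relative to ductal nuclei, 15 of 37 members were at least 2-fold lower in Pkhd1-high tumour nuclei (12.9% of all genes) and 1, Itga7, higher (8.52% of all genes), with a median log2 ratio of -0.58 against -0.06 over all genes. Itgb8 was at 61.6 CPM in Pkhd1-high tumour and 359 CPM in ductal nuclei (5.83-fold lower, 5.38 to 6.31). Itgb6 was at 23.0 CPM and 57.8 CPM, and Itgb4 at 7.50 CPM and 33.8 CPM, in the same order. Itga6 and Itgav were within 2-fold, with ratios of 0.835 (0.754 to 0.927) and 0.833 (0.781 to 0.889). Each of the 3 beta chains was thus lower in tumour than in ductal nuclei, while above hepatocytes in both.

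Lama3 was at 2.36 CPM in Pkhd1-high tumour and 16.2 CPM in ductal nuclei, and Lamc3 at 0.434 and 26.9 CPM (61.9-fold lower, 29.2 to 157). Itga2, a collagen receptor chain of epithelium and platelets, was at 5.64 and 31.8 CPM, Itga3 at 34.2 and 87.5 CPM, and Itga1 at 29.0 and 232 CPM. Lama5, Lamb1 and Lamc1 did not share that order: Lama5 was at 95.7 CPM in Pkhd1-high tumour and 68.0 CPM in ductal nuclei (1.41-fold, 1.24 to 1.60), Lamb1 at 91.4 and 49.1 CPM, and Lamc1 at 225 and 133 CPM. The order of Lamb1 did not hold in each type of Pkhd1-high nuclei described below. Itga8, Itgam, Lama2 and Lamb3 are among the 15 but did not stay past 2-fold in each of those alternatives.

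Ductal nuclei compared with hepatocytes had 23 of 37 members at least 2-fold higher (26.9% of all genes) and 1, Lamb3, lower (12.5% of all genes), with a median log2 ratio of 1.75 against 0.32 over all genes. Itgb8 was at 359 CPM in ductal and 5.16 CPM in hepatocyte nuclei (69.5-fold, 58.9 to 82.6). Thinned to 1000 UMIs per nucleus, 26.8% of ductal nuclei (24.1 to 29.6) had an Itgb8 UMI, against 0.436% of hepatocytes (0.175 to 0.896); unthinned the shares were 59.2% and 4.38%. Set against the next of the 6 gates, ductal nuclei led Itgb8 by 4.49-fold (4.02 to 5.02), Itgb4 by 3.63-fold (2.46 to 5.49), Itgb6 by 2.82-fold (2.4 to 3.3) and Lamc3 by 2.15-fold (1.57 to 2.97), and the lead of Lamc3 was under 2-fold in 4 of the alternatives. Itgb6 was 47.9-fold higher (33.7 to 69.9) and Itgb4 32.5-fold higher (22.0 to 49.5) in ductal than in hepatocyte nuclei.

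Ductal nuclei with UMIs of Ctnnd2 (44 nuclei) and of Asz1 or Tinag (405 nuclei) differed. Itga2 was at 28.2 CPM in the Asz1 or Tinag nuclei and 198 CPM in the Ctnnd2 nuclei (7.02-fold lower, 4.61 to 10.7). Itgb6 was at 67.3 and 203 CPM and Lama4 at 13 and 203 CPM, in the same order. The Ctnnd2 nuclei thus held more of Itga2, Itgb6 and Lama4. Itgb8 was at 417 and 220 CPM (1.90-fold, 1.42 to 2.58, short of the 2-fold call). Itga4 and Itgam, both led by immune nuclei, were at 66.1 CPM and 39.6 CPM in the Ctnnd2 nuclei, on 15 and 9 UMIs. Ptprc was at 20.6 CPM in the Asz1 or Tinag nuclei and 137 CPM in the Ctnnd2 nuclei, and its part in these results was not tested.

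The Pkhd1-high tumour nuclei were split by their own markers into a Kcnj16 and Slc8a3 type (925 nuclei) and a Zfp804a and Hmga2 type (303 nuclei). Lamb1 was at 131 CPM in the first and 15.6 CPM in the second (8.42-fold, 6.27 to 11.6), Itgb8 at 94.1 and 17.3 CPM (5.44-fold, 4.10 to 7.37), and Lama1 at 14.3 and 1.02 CPM, with 3 UMIs in the second (14-fold, 4.68 to 69). In the second type Lama1 was thus not above its 1.41 CPM in hepatocyte nuclei. Lamb1 in that type was below its 49.1 CPM in ductal nuclei. Itgb4 was at 4.32 CPM in the first and 17.3 CPM in the second (4.01-fold lower, 2.56 to 6.32), Itgb6 at 13.1 and 30.5 CPM, and Itga7 at 19.9 and 54.9 CPM. Itgb4, Itgb6 and Itga7 were thus higher in the Zfp804a and Hmga2 type, and Lamb1 and Itgb8 in the other. Itga7 in the Kcnj16 and Slc8a3 type was within 2-fold of its 15.3 CPM in ductal nuclei. Lamc1 was at 213 and 214 CPM.

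**Figure D3:**
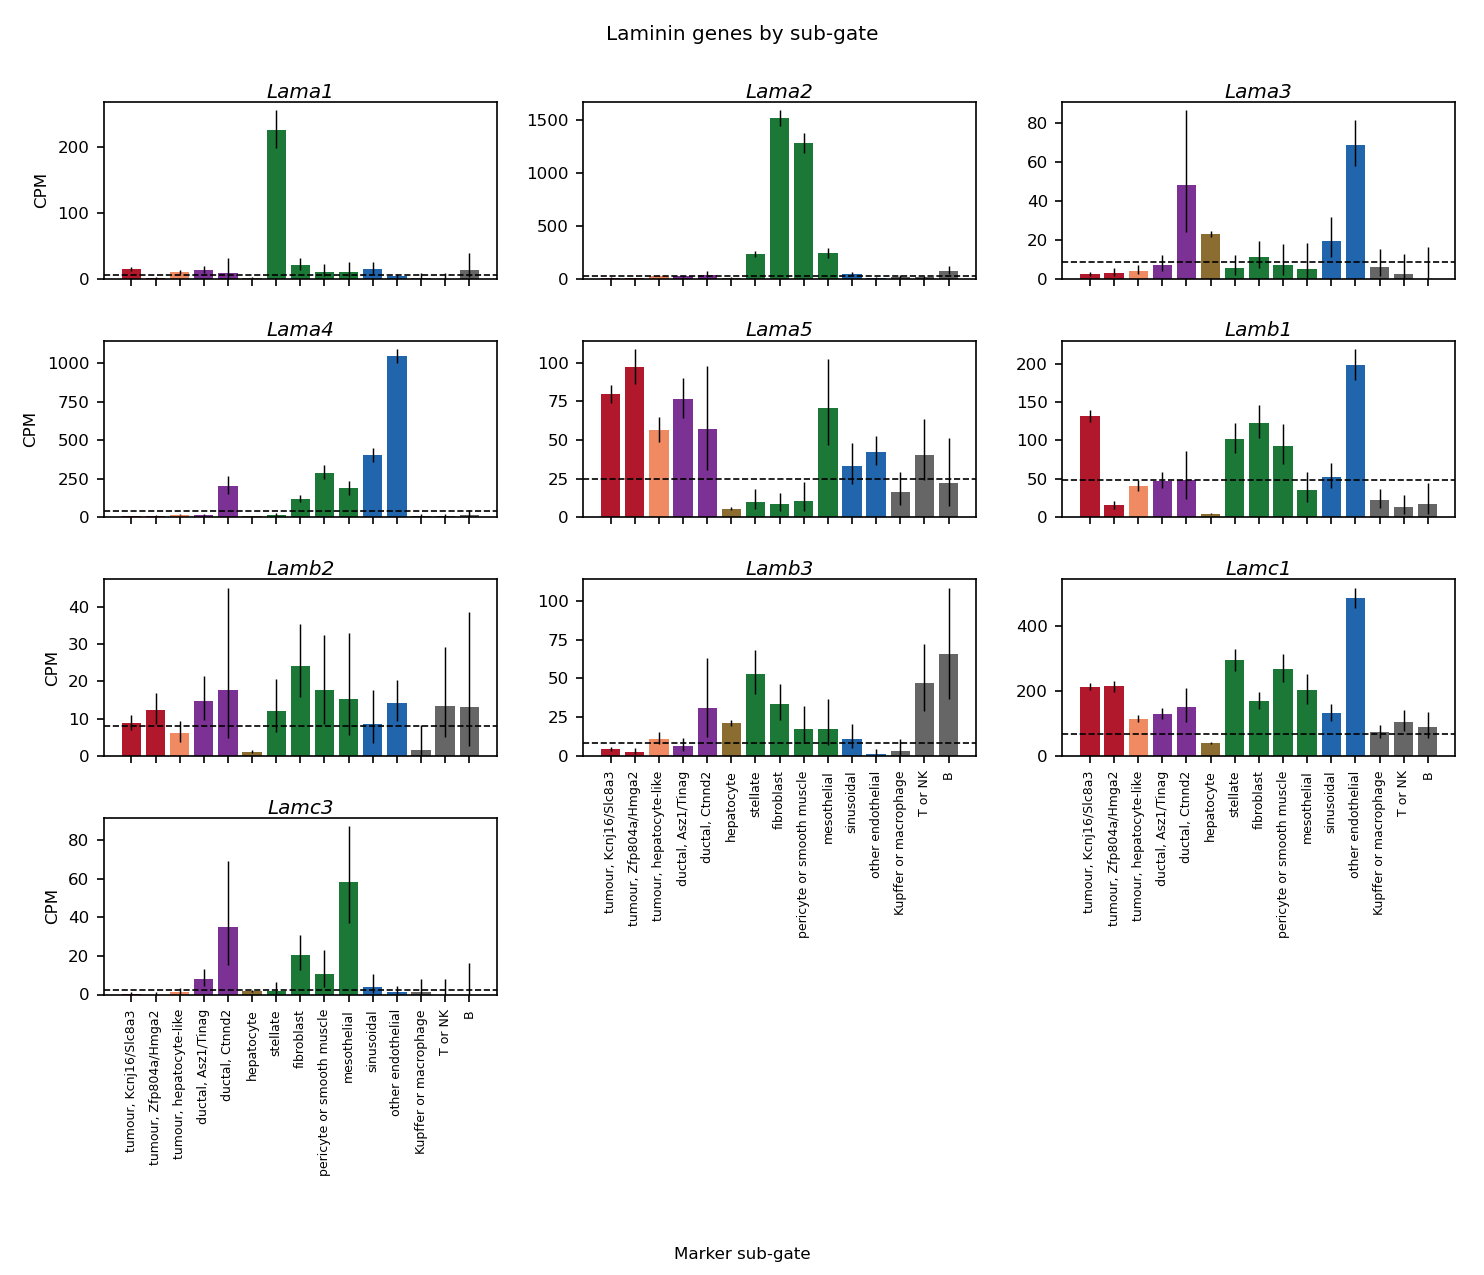
CPM of 10 laminin genes in each sub-gate, with the 95% counting interval; colours mark the gate a sub-gate belongs to, the dashed line the level in free RNA, and each panel has its own scale. Lamb1 stands higher in 1 tumour type than in the other, Lama2 is highest in fibroblasts and pericytes, and Lama4 in endothelial nuclei.

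**Figure D4:**
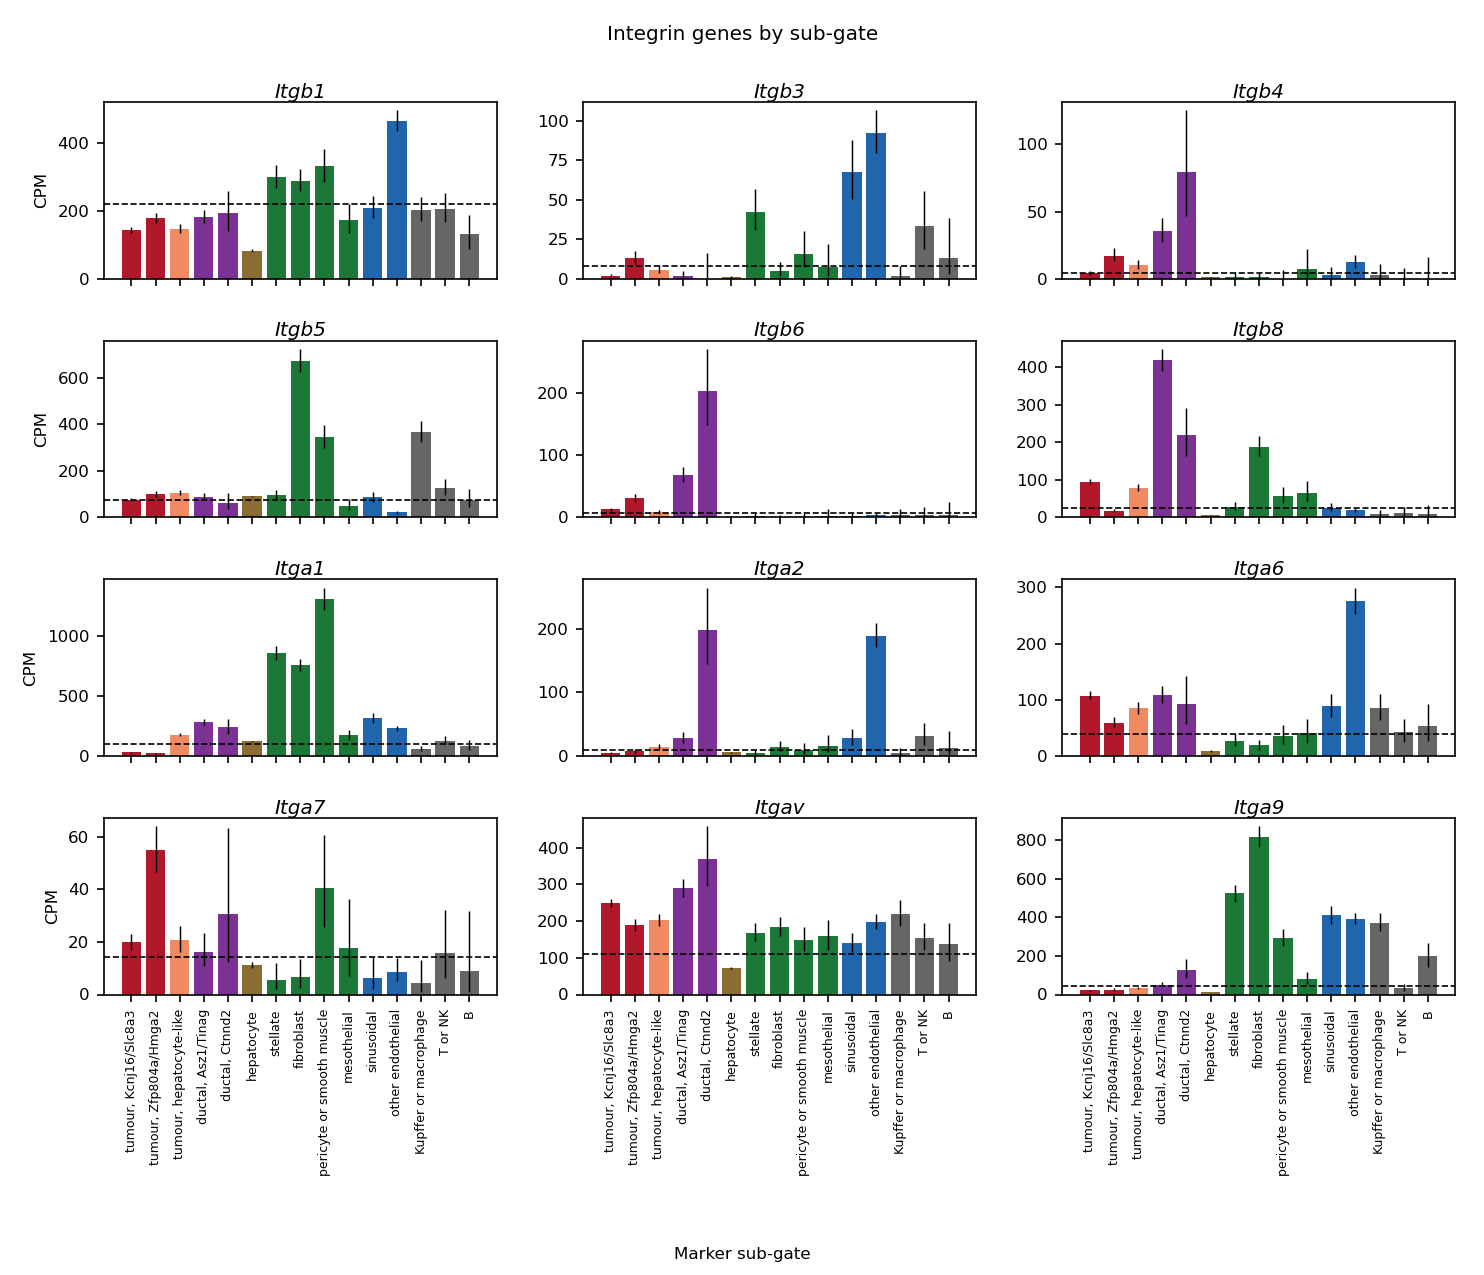
CPM of 12 integrin genes in each sub-gate, drawn as for the laminins. Itgb6 and Itgb4 are high in ductal nuclei, Itga1 in stromal nuclei and Itgb3 in endothelial nuclei.

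Stromal nuclei led Lama1, Lama2, Itga1, Itga8, Itga10 and Itga11. Lama2, the alpha chain of muscle and mesenchymal laminin (chr10:26980036-27619758, minus strand), was at 831 CPM in stromal nuclei, against 41.8 CPM in ductal nuclei, the next gate (19.9-fold, 17.2 to 23.2), and 10.7 CPM in hepatocytes. Lama1 was at 111 CPM, against 10.2 CPM in ductal nuclei. Itga1 was at 841 CPM, against 252 CPM in endothelial nuclei. Itga11, a fibroblast collagen receptor chain, was at 33.1 CPM, against 3.06 CPM in immune nuclei, and Itga8, the chain of mesangial and stellate cells, at 268 CPM, against 36.7 CPM in endothelial nuclei. Itga10, another collagen receptor chain, led by 2.11-fold (1.45 to 3.04), and did not pass 2-fold in 4 of the alternatives.

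Within the stroma, Lama1 was at 225 CPM in stellate and 21.4 CPM in fibroblast nuclei, and Itgb3 at 42.6 and 4.65 CPM. Lama2 was at 234 CPM in stellate and 1517 CPM in fibroblast nuclei (6.47-fold lower, 5.67 to 7.42), Itgb5 at 95.4 and 672 CPM, Itgb8 at 28.7 and 188 CPM, and Itga11 at 6.48 and 85.6 CPM. The sub-gates thus differed in both directions. Pericyte or smooth muscle nuclei had Itga1 at 1301 CPM and Lama4 at 290 CPM, and mesothelial nuclei had Itga3 at 129 CPM and Lamc3 at 58.1 CPM.

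Endothelial nuclei led 6 members. Lama4, the alpha chain of vascular laminin, was at 860 CPM, against 98.2 CPM in stromal nuclei (8.76-fold, 7.96 to 9.65), and 50.3% of endothelial nuclei thinned to 1000 UMIs had a Lama4 UMI, against 0.685% of hepatocytes; unthinned the shares were 74.6% and 6.97%. Itga2 was at 161 CPM, against 31.8 CPM in ductal nuclei, and Itgb3, of platelets and angiogenic vessels, at 82.6 CPM, against 25 CPM in stromal nuclei. Lama3 was at 51.5 CPM, against 23.0 CPM in hepatocytes. Itga6 was at 227 CPM, against 110 CPM in ductal nuclei, and Itga5, the fibronectin receptor chain, at 109 CPM, against 50.1 CPM in immune nuclei; these leads of 2.06-fold and 2.18-fold were under 2-fold when nuclei of more than 1 gate were put in their leading gate, and that of Itga5 also with clusters and at most 1% mitochondrial UMIs.

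Sinusoidal nuclei had less of the vascular laminin than the other endothelial nuclei: Lama4 was at 404 and 1045 CPM (2.59-fold lower, 2.30 to 2.91), Lamc1 at 131 and 485 CPM, and Lamb1 at 52.7 and 198 CPM. Itga2 was at 28.2 and 190 CPM, and Itga6 at 88.2 and 275 CPM. Lama2 ran the other way, at 47.8 and 7.06 CPM (6.76-fold, 3.59 to 13.5), as did Itga8 at 93.1 and 19.2 CPM, Itgb5 at 86.9 and 21.7 CPM, Itga4 at 40.4 and 10.6 CPM and Itgal at 23.3 and 7.06 CPM. Itga4 and Itgal changed sign with clusters on exact neighbours. Ptprc was at 124 and 28.8 CPM and Reln at 98 and 17.2 CPM in the same nuclei, and their part in these results was not tested.

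The 7 members led by immune nuclei were Itga4, Itgae, Itgal, Itgam, Itgax, Itgb2 and Itgb7, all chains of leukocyte integrins. Itgal, of lymphocytes and other leukocytes, was at 145 CPM, against 11.1 CPM in endothelial nuclei (13.1-fold, 9.33 to 18.9). Itgam, of myeloid cells, was at 69.5 CPM, against 4.44 CPM in ductal nuclei (15.6-fold, 9.73 to 26.4). Itga4, which serves homing of lymphocytes and monocytes, was at 248 CPM, against 17.5 CPM in endothelial nuclei (14.2-fold, 10.9 to 18.9). Its partner Itgb7 was at 46.5 CPM, against 3.77 CPM in stromal nuclei. Itgb2 was at 58.7 CPM and Itgax, of dendritic cells and macrophages, at 29.1 CPM, against 6.40 CPM and 3.20 CPM in endothelial nuclei. Itgae led by 2.09-fold (1.20 to 3.67), at 15.8 CPM against 7.56 CPM in endothelial nuclei, and was under 2-fold in 3 of the alternatives. Thinned, 17.0% of immune nuclei had an Itgal UMI, against 0.249% of hepatocytes; unthinned the shares were 33.7% and 3.33%. In Kupffer or macrophage nuclei Itgam was at 110 CPM and Itgax at 44.6 CPM, against 24.7 CPM and 13.4 CPM in T or NK nuclei. Itgb7 was at 91.9 CPM and Itgae, of tissue-resident lymphocytes, at 38.1 CPM in T or NK nuclei, against 23.8 CPM and 11.9 CPM in Kupffer or macrophage nuclei. Itgb5 was at 365 CPM in Kupffer or macrophage nuclei, below its 672 CPM in fibroblasts.

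The remaining members had no leading gate by 2-fold. Itgb5 was highest in stromal nuclei (310 CPM) and next in immune nuclei (231 CPM), Itga9 in stromal (541 CPM) and endothelial nuclei (396 CPM), and Itgb1 in endothelial (405 CPM) and stromal nuclei (292 CPM). Lamb1 was highest in endothelial (155 CPM) and stromal nuclei (103 CPM), with pooled tumour nuclei at 82.8 CPM, and Lamc1 in endothelial (376 CPM) and stromal nuclei (243 CPM), with tumour nuclei at 206 CPM. Itgav was highest in ductal (278 CPM) and next in tumour nuclei (226 CPM), and Itga3 was at 87.5 CPM in ductal and 84.1 CPM in endothelial nuclei (1.04-fold, 0.892 to 1.22). Itga2b, of megakaryocytes and platelets, was between 2.55 and 6.55 CPM in all 6 gates, with free RNA at 2.86 CPM, and Itgb2l was between 0.198 and 4.44 CPM.

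Genes that link or neighbour these chains were described from lists chosen with earlier results known. Of 25 adhesion adaptors and kinases, 6 were at least 2-fold higher in Pkhd1-high tumour than in hepatocyte nuclei and 2 lower, with a median log2 ratio of 0.38; over all genes 25.8% were higher and 15.9% lower, so these counts lie near or below the share of all genes. Src, the kinase downstream of integrins, was at 78.3 CPM in Pkhd1-high tumour and 4.49 CPM in hepatocyte nuclei, and Tln2, a talin that activates integrins, at 122 and 25.9 CPM. Fermt2, a kindlin, was lower, at 110 and 257 CPM. Of 22 matrix partners and ligands with enough UMIs, 12 were higher and 3 lower, with a median of 1.08. The same lists had 2 of 23 higher and 3 lower, and none of 22 higher and 13 lower, in Pkhd1-high tumour relative to ductal nuclei, where 8.52% of all genes were higher and 12.9% lower. Set against hepatocytes, Vcam1, a ligand of the Itga4 integrins, was higher in Pkhd1-high tumour nuclei, at 168 and 12.6 CPM. So was Spp1, an Itgav ligand, at 128 and 25.5 CPM. Fn1, fibronectin, was lower in these tumour nuclei, at 147 and 1077 CPM.

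Reads of overlapping genes could touch some values. Of the 38 members, 13 overlap another counted gene, and 5 overlap one that reached 20 CPM in some gate: Itga1, Itga4, Itga7, Itgav and Lamb3. Itga1 encloses Pelo on the same strand, which was at 27.6 CPM in stromal, 4.34 CPM in Pkhd1-high tumour and 9.35 CPM in hepatocyte nuclei. The other overlapping genes that reached 20 CPM lie on the opposite strand. Itga4 faces Cerkl, which was at 86.2 CPM in hepatocytes, and Itgav faces Gm13684, which was at 36.5 CPM in Pkhd1-high tumour and 11.1 CPM in hepatocyte nuclei. The labels do not say whether the counting used strand.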

How the data were processed

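The deposited count tables, 1 filtered and 1 unfiltered matrix of UMIs per gene and barcode, were made by the authors with Cell Ranger (5.0 per the submitters' processing notes) on mm10, and hold no normalization. Their headers differ: 5.0.0 is named in that of the filtered and 4 in that of the unfiltered matrix. Nuclei needed 500 UMIs and 300 genes, with no more than 5% of UMIs mitochondrial. Free RNA was the sum of 49929 uncalled barcodes of 500 UMIs up to under 850. A nucleus met a gate when its marker UMIs exceeded the free RNA share (Poisson tail under 0.0001, at least 2 distinct markers) and its marker score led any other gate by at least 2 times. Tumour and ductal gates also asked for a score of 0.5, and hepatocyte-like tumour nuclei for 0.25 of the hepatocyte marker share of free RNA. These thresholds were set after the data and the members' levels had been seen, and 3 gate rules were tried. The earlier ones are given among the alternatives. The ductal over hepatocyte comparison and the sub-gates were also added after the data had been seen. Nuclei of more than 1 gate were left out, and no doublet caller was run. UMIs were summed per gate and divided by the gate's total (CPM). A gene was called at a ratio of at least 2, or at most its inverse, with at least 20 UMIs over the gates compared, a sum of 0 standing at 3 counts. Intervals are exact (95%). The scripts recovered known folds of well-covered genes in Poisson counts simulated at the gate totals. Nuclei, gating and free RNA were not simulated, and no known folds were set for genes of few UMIs. One member is not reported here. Named genes were the other members, with full values for those led at least 2-fold by 1 gate and for the laminins and 9 set integrins; other genes came from 2 lists. The members, markers and lists were chosen with earlier results of these data known. Python 3.11.15, scipy 1.17.1, scanpy 1.11.5 and leidenalg 0.10.2 were used.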

Additional observations from a re-analysis of the deposited data

How the results depend on the processing

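Of the alternatives, 8 were planned and 3 were added after the data were seen, among them the first 2 gate rules tried. No paired analysis was possible because no barcode can be assigned to either sample. The clusters moved with details of their making: an exact neighbour search, first run only to make the calculation repeatable, changed which members were called, so both searches are given, and 10 random starts gave ranges. The cause of each change was not tested. For Pkhd1-high tumour over hepatocyte nuclei, 23 members were higher with clusters on exact neighbours, against 15, and 16 to 21 over the random starts, where 5 to 8 were lower, against 5. For hepatocyte-like tumour over hepatocyte nuclei, 13 were higher with a minimum of 100 UMIs, against 24, and 13 to 23 over the random starts; lower were 2 with the stricter threshold, with the mean per nucleus and with the first gate rule, 4 with clusters and 5 with clusters on exact neighbours, against 1, and 2 to 9 over the random starts. For Pkhd1-high tumour over ductal nuclei, 4 were higher at most 1% mitochondrial UMIs, 2 with the stricter threshold, 5 after free RNA was subtracted and 3 with the mean per nucleus, against 1. For Pkhd1-high over hepatocyte-like tumour nuclei, higher were 9 with clusters, 10 with clusters on exact neighbours and 6 with the second gate rule, against 3; lower were 4 and 3 with those clusters, 2 with the first gate rule and 5 with a minimum of 100 UMIs, against 11; over the random starts 4 to 10 were higher and 3 to 5 lower. For ductal over hepatocyte nuclei, lower were 2 at most 1% mitochondrial UMIs, after free RNA was subtracted and with the mean per nucleus, against 1; higher were 17 to 26 over the random starts, against 23. Tumour nuclei led 0 members with the mean per nucleus, against 1 (Itga7). Outside the random starts, every other count was within 1.5 times its value.

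Called log2 ratios changed sign as follows. With clusters they were, for Pkhd1-high over hepatocyte-like tumour nuclei, 0.29 for Itga4, 0.25 for Itgam, 0.25 for Itgax and 1.84 for Itgb7; for sinusoidal over other endothelial nuclei -0.60 for Itga4; and for stellate over fibroblast nuclei 0.32 for Itga2. With clusters on exact neighbours they were, for hepatocyte-like tumour over hepatocyte nuclei, -1.62 for Itgb7; for Pkhd1-high tumour over ductal nuclei 0.036 for Itga8 and 0.041 for Lama2; for Pkhd1-high over hepatocyte-like tumour nuclei 0.026 for Itga4, 0.14 for Itgam, 0.10 for Itgax, 2.95 for Itgb7 and 0.44 for Lama2; for sinusoidal over other endothelial nuclei -0.94 for Itga4 and -0.075 for Itgal; and for stellate over fibroblast nuclei 0.27 for Itga2. After free RNA was subtracted Itgb3 was at -0.17 for ductal over hepatocyte nuclei. Of the 25 members led by 1 gate, 21 to 25 kept that gate and the 2-fold lead in each alternative, and none was led by another. Depth limits members of few UMIs most: with no replicate, differences between animals or libraries cannot be seen at all.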
